A study of Mus musculus with 6 samples.

Results

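Glycine and serine are made, interconverted and used in kidney by several enzymes. The expression of 10 of their genes is described here in the kidneys of 24-month-old mice. The genes are Gldc, Amt and Gcsh of the glycine cleavage system, the serine hydroxymethyltransferase genes Shmt1 and Shmt2, the serine synthesis genes Phgdh, Psat1 and Psph, the creatine precursor gene Gatm and the glycine conjugation gene Glyat. They were taken by name from 13696 protein-coding genes, and all 10 were listed. The 3 fat-1 kidneys were from mice carrying, per the labels, a fat-1 knockin. In nematodes fat-1 encodes a desaturase by which omega-3 fatty acids are made out of omega-6 ones. The 3 WT kidneys were from wild-type mice, and all mice were 24 months old. The labels used here give neither the promoter of the inserted gene nor the sex, feeding or source animals, so the spread between samples may be technical. Replicate numbers here only name the libraries, those of fat-1 being given in the order of deposit, and pair none of them. Whether each library carries the inserted gene was not checked.

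The glycine cleavage system is a mitochondrial complex that splits glycine into carbon dioxide, ammonia and a one-carbon unit carried on tetrahydrofolate. Serine hydroxymethyltransferase passes that unit to a further glycine to make serine, or runs the other way. Kidney also makes serine from a glycolytic intermediate, joins glycine to arginine as the first step of creatine synthesis, and couples glycine to acyl groups for excretion.

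Expression is given in FPKM, a fragment count corrected for transcript length and for the mapped fragments of each library, summed over the listed transcripts of a gene. Because the values are per length, levels of different genes can be set side by side. The genes were chosen by their FPKM difference between fat-1 and WT, Gldc being among the genes called in that contrast, so their differences are given as a description with no test. A difference below is the log2(FPKM + 1) level in fat-1 less that in WT, with the standard error (SE) of the fit over all 11698 tested genes.

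Summed FPKM was between 387488 and 431081 per library, and mitochondrially encoded genes took 12.1% to 16.7% of it. All 12 markers of the S1 and S2 proximal tubule were listed, with sums of 1827 to 2761 FPKM in fat-1 and 2023 to 2428 FPKM in WT. A few libraries stood apart. The 8 macrophage markers summed to 885 FPKM in WT replicate 1 and to 101 to 211 FPKM in the other 5 libraries, and the 6 listed erythrocyte markers to 540 FPKM in fat-1 replicate 1 against 15.0 to 242 FPKM elsewhere. The 8 lymphocyte markers summed to 12.99 FPKM in fat-1 replicate 3 and 19.5 FPKM in WT replicate 1, and to 2.21 to 4.53 FPKM in the other 4 libraries.

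In 3 of the 10 genes, Gldc, Amt and Psat1, every fat-1 library lay above every WT library. Among all tested genes, 8.33% showed that arrangement, 6.86% the reverse and 15.2% either. Since the rule used the contrast, nothing is read from this count. The sequences before the RefSeq transcription starts of these 3 genes are shown because theirs are the differences without overlap between groups. Each is 250 bases, 5′ to 3′ on the gene's strand (build GRCm38.p6). They lie at chr19:30175442-30175691, minus strand, for Gldc, at chr9:108296655-108296904, plus strand, for Amt, and at chr19:15925060-15925309, minus strand, for Psat1, at the first of its 2 RefSeq windows. Capitals mark matches to a CCAAT box or a GC box (GGGCGG) on either strand.
Gldc: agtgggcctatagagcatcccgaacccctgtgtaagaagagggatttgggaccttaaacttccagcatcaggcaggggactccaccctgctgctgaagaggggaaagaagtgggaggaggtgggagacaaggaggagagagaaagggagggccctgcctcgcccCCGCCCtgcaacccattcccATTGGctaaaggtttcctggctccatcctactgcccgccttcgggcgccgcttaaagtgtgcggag
Amt: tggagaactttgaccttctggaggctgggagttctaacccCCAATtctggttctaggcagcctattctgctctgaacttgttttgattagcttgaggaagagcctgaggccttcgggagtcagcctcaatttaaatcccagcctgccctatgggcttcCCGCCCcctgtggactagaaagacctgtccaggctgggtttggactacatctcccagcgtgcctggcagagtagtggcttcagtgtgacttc
Psat1: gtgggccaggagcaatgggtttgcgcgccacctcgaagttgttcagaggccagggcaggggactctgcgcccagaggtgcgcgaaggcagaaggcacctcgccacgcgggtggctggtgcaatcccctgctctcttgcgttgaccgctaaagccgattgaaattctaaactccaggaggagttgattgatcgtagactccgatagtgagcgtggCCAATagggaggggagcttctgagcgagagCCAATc

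All 10 genes had such a window, searched from 250 bases before to 50 after the start, with the first window used for Psat1. A CCAAT box, searched as CCAAT on both strands, was found in 8 of the 10, against 37.4% of 32817 RefSeq promoter windows of the same length, and a GC box in 5 of the 10, against 35.6%. Both counts depend on the Psat1 window used. The first held 3 CCAAT boxes and 0 GC boxes, and the second 0 and 2. In Gldc the CCAAT box began 66 bases and the GC box 86 bases before the start. A TATA box, searched as TATAAA, was found in Phgdh alone, against 13.6% of all windows. Neither a cAMP response element (TGACGTCA, 1.79% of all windows), a C/EBP-ATF response element (TGATGNAAT, 0.966%), a DR1 element (0.0396%) nor an E-box (CACGTG, 7.15%) was found in any of the 10, which says only that these letters are not in these windows. In Phgdh the TATA box and a CCAAT box share 1 base. A match is a description, not a binding site. The 32817 windows were not limited to genes expressed in these kidneys, so the counts are not read as an enrichment. The windows of the 10 genes differed in base composition. GC content was 59.0% in Gldc, 54.7% in Amt and 60.3% in Psat1, with Glyat lowest of the 10 at 42.0%, against a median of 52.7% over all windows. The number of CpG pairs was 10 in Gldc, 7 in Amt, 20 in Psat1 and 1 in Glyat, against a median of 7.

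Of the 10 genes, Gldc had the highest ratio of fat-1 to WT expression. Gldc encodes the pyridoxal phosphate-dependent decarboxylase that opens the glycine cleavage reaction, and its single listed transcript lies on chromosome 19 (30098449 to 30175418, minus strand, mm10), over a processed pseudogene, Rpl31-ps20, on the other strand. Its level was 48.6, 56.5 and 74.9 FPKM in fat-1 replicates 1 to 3 and 20.6, 15.4 and 15.2 FPKM in WT replicates 1 to 3. The lowest fat-1 kidney lay well above the highest WT kidney. The means were 60.0 ± 13.5 FPKM in fat-1 and 17.1 ± 3.05 FPKM in WT (SD, n = 3 each), a ratio of 3.51 and a log2 difference of 1.75 ± 0.20 (SE). This difference ranked 29 from the highest of 11698, and Gldc alone of the 10 was under an adjusted p of 0.05 in limma, a threshold passed by 0.18% of all tested genes in either direction 0.12% with fat-1 higher and 0.0598% with fat-1 lower. It was not under that threshold in 8 of 16 alternative settings, among them leaving out any library but WT replicate 1. Because Gldc was chosen with this result known, its place under the threshold is not evidence.

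Amt encodes the aminomethyltransferase that hands the one-carbon unit to tetrahydrofolate (chromosome 9, 108296870 to 108302302, plus strand). It measured 55.3, 46.7 and 44.7 FPKM in fat-1 and 41.7, 33.2 and 36.8 FPKM in WT. The groups did not overlap, but fat-1 replicate 3 and WT replicate 1 lay close together. The log2 difference was 0.38 ± 0.14 (SE), with means of 48.9 ± 5.66 FPKM in fat-1 and 37.2 ± 4.30 FPKM in WT (SD, n = 3).

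Gcsh encodes the lipoyl-bearing carrier protein of the complex (chromosome 8, 116981810 to 116993537, minus strand). Its level was 76.3, 61.0 and 61.9 FPKM in fat-1 and 68.1, 75.9 and 86.3 FPKM in WT. The highest fat-1 kidney lay above 2 of the 3 WT kidneys, and the difference was -0.21 ± 0.14 (SE). Dld, the dihydrolipoamide dehydrogenase that the complex shares with pyruvate dehydrogenase, measured 147 ± 6.36 FPKM in fat-1 and 149 ± 14.6 FPKM in WT (SD, n = 3). Its log2 difference was -0.02 ± 0.12 (SE; limma adjusted p = 0.992) and took the other sign under 4 of 16 alternatives.

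Ratios within a library do not depend on how libraries are scaled. Gldc made up 14.9%, 17.8% and 23.2% of the summed FPKM of Gldc, Amt, Gcsh and Dld in fat-1 and 7.84%, 5.46% and 5.15% in WT. The share of Gcsh was 20.6 ± 2.46% in fat-1 and 27.3 ± 1.71% in WT, and that of Dld 45.6 ± 2.43% and 53.1 ± 2.80% (SD, n = 3), both lower in every fat-1 library, while the shares of Amt overlapped. Shares of one sum are tied, so a higher share of one gene lowers the others. The ratio of Gldc to Amt was 0.878, 1.21 and 1.68 in fat-1 and 0.493, 0.465 and 0.413 in WT. Amt itself was higher relative to Gcsh in each fat-1 kidney, at 0.726, 0.767 and 0.722 against 0.613, 0.437 and 0.426 in WT.

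**Figure D1:**
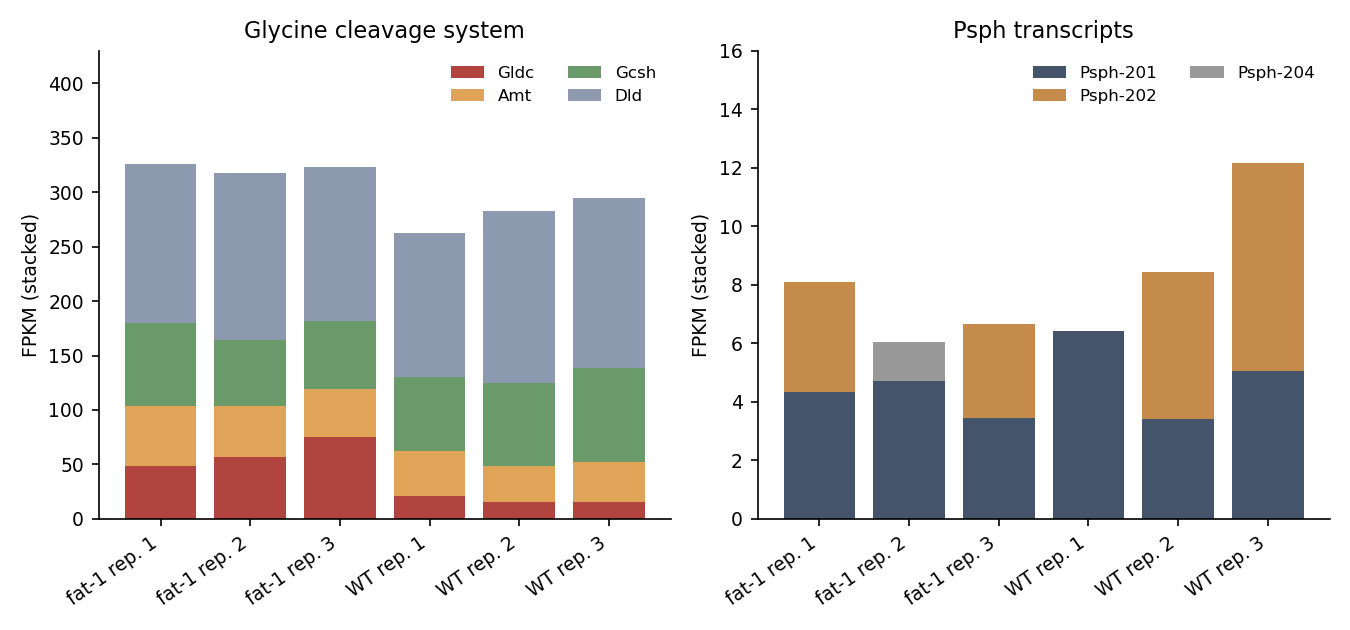
Stacked FPKM (vertical axes) in the 3 fat-1 and 3 WT libraries, one bar per library, for the 4 genes of the glycine cleavage system (left) and the 3 listed transcripts of Psph (right). The Gldc segment is between 48.6 and 74.9 FPKM in fat-1 and between 15.2 and 20.6 FPKM in WT, while Dld is the largest segment in each bar; Psph-202 is at 0 in fat-1 replicate 2 and WT replicate 1.

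Markers of other cells were set beside Gldc. All 12 endothelial markers were listed and had a positive difference (median 0.92), and their summed level was 212 to 281 FPKM in fat-1 and 111 to 137 FPKM in WT, with none at 0 in any library. Podocyte marker sums (9 genes) were 113 to 129 FPKM in fat-1 and 73.8 to 93.6 FPKM in WT. Sums of distal convoluted tubule markers (7 genes) were 214 to 321 FPKM in fat-1 and 369 to 537 FPKM in WT, and those of intercalated cell markers (8 genes) 97.3 to 113 FPKM in fat-1 and 138 to 151 FPKM in WT. Sums of S1 and S2 proximal tubule markers overlapped between the groups, with 5 of 12 differences positive (median -0.06). Slc34a1 was the largest term in that sum, at 854 to 1357 FPKM in fat-1 and 1135 to 1359 FPKM in WT. In the same list the transporter genes Slc22a8 (0.98) and Slc13a3 (0.84) lay higher in every fat-1 library. Of the 8 markers of the S3 proximal tubule, 1 had a positive difference (median -0.56), and their sums overlapped, at 1054 to 1703 FPKM in fat-1 and 1329 to 1867 FPKM in WT. For hepatocytes, which also cleave glycine, 6 of 7 markers were listed, with sums of 624 to 788 FPKM in fat-1 and 470 to 804 FPKM in WT, most of it Cyp2e1. Of these 6, 4 had a positive difference (median 0.28). Alb, the albumin gene, was at 7.44, 5.72 and 8.02 FPKM in fat-1 and 1.43, 2.80 and 2.49 FPKM in WT, and Apoa2 also lay higher in every fat-1 library. The groups overlapped for Fgb, Cyp2e1 (difference 0.01), Serpina1a (-0.09) and Ttr (-0.31), the last at 23.3, 23.1 and 39.5 FPKM in fat-1 and 22.0, 40.4 and 46.3 FPKM in WT. The part of these cell types in the level of Gldc was not tested, and in whole tissue more cells of a type and more RNA per cell cannot be told apart.

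The genes whose profiles over the 6 libraries lay nearest to that of Gldc were Fgf18, Tek, Id1, Inhbb and Col27a1, by the root mean square difference of log2 values centred on each gene's mean. Those distances were 0.22, 0.22, 0.23, 0.23 and 0.24, against a median of 0.91 over all other tested genes. The nearest of many genes lie below the median by construction. Because the distance includes the contrast between groups, genes near Gldc also have a large difference (1.33 to 2.00). No link between genes is read from these distances or from those of other genes below. Tek, an endothelial receptor gene and one of the markers above, measured 9.64, 12.5 and 15.5 FPKM in fat-1 and 4.94, 4.14 and 3.91 FPKM in WT, with the same order of libraries as Gldc. The growth factor gene Fgf18 measured 2.55, 4.12 and 3.41 FPKM in fat-1 and 0.808, 0.429 and 0.381 FPKM in WT. Id1, an inhibitor of basic helix-loop-helix factors, measured 56.4, 50.7 and 70.5 FPKM in fat-1 and 20.8, 10.4 and 12.3 FPKM in WT.

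Shmt1 and Shmt2 encode the cytosolic and the mitochondrial serine hydroxymethyltransferase, and for both the groups overlapped. Shmt1 (chromosome 11, 60788104 to 60811265) measured 25.1, 20.9 and 23.0 FPKM in fat-1 and 23.8, 16.7 and 18.5 FPKM in WT, with a difference of 0.23 ± 0.15 (SE). Shmt2 (chromosome 10, 127517123 to 127522444) measured 79.2, 79.5 and 68.9 FPKM in fat-1 and 58.5, 79.3 and 79.2 FPKM in WT, with a difference of 0.08 ± 0.15 (SE). WT replicate 1 was the low library for Shmt2, and without it the difference was -0.07. Shmt2 was the more abundant in each kidney, by a ratio of 3.31 ± 0.427 in fat-1 and 3.83 ± 1.21 in WT (SD, n = 3). Its transcript Shmt2-201 carried 77.4% to 82.1% of the gene's FPKM in fat-1 and 80.9% to 83.2% in WT. The span of Shmt1 overlaps that of Smcr8, and the span of Shmt2 that of Ndufa4l2, on the opposite strand. Whether exons are shared was not checked. No strand setting is stated, so reads from any shared bases may have been assigned to either gene. The nearest profiles to Shmt1 were those of Ppp6c, Ubald2 and Net1, at distances of 0.03, 0.04 and 0.04 against a median of 0.27.

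Serine synthesis genes were expressed at low levels, between 1.51 and 12.2 FPKM in all libraries. Psat1, the transaminase of the pathway (chromosome 19, 15904678 to 15925059), measured 5.70, 6.08 and 5.75 FPKM in fat-1 and 3.56, 3.51 and 2.74 FPKM in WT. The fat-1 kidneys were close together and all lay above WT. Its means were 5.84 ± 0.205 FPKM in fat-1 and 3.27 ± 0.457 FPKM in WT (SD, n = 3), a ratio of 1.79 and a difference of 0.69 ± 0.15 (SE). This was the second highest of the 10 differences.

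Phgdh, the dehydrogenase that opens serine synthesis (chromosome 3, 98313170 to 98339990), did not follow Psat1. It measured 1.51, 1.66 and 4.77 FPKM in fat-1 and 5.07, 2.93 and 2.41 FPKM in WT. Its highest values were in fat-1 replicate 3 and WT replicate 1. The difference was -0.36 ± 0.38 (SE), and -0.50 without those 2 libraries. The same 2 libraries had the highest sums of macrophage and of lymphocyte markers, given above. They also had the highest sums of the 8 fibroblast and pericyte markers (98.9 and 123 FPKM against 57.7 to 77.9 FPKM in the other 4). Their mitochondrially encoded shares were the lowest (12.6% and 12.1% against 13.8% to 16.7%). The part of these cell types and shares in the level of Phgdh was not tested. The nearest profiles were Lrrfip1 at 0.14, Ublcp1 at 0.14 and Auts2 at 0.14, against a median of 0.51. The Psat1 to Phgdh ratio was 3.79, 3.66 and 1.21 in fat-1 and 0.701, 1.201 and 1.14 in WT, so fat-1 replicate 3 lay almost level with WT replicate 2.

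Psph, the phosphatase of the last step (chromosome 5, 129765558 to 129787449), measured 8.10, 6.05 and 6.67 FPKM in fat-1 and 6.43, 8.42 and 12.2 FPKM in WT, a difference of -0.30 ± 0.23 (SE) with overlapping groups. Its 3 listed transcripts were assigned unevenly. Psph-202, the shorter one of 785 bases, held 46.4% and 48.5% of the gene in fat-1 replicates 1 and 3 and 59.3% and 58.5% in WT replicates 2 and 3, and was listed at 0 in fat-1 replicate 2 and WT replicate 1. Psph-204 was above 0 in fat-1 replicate 2 alone, at 1.36 FPKM. Psph-201 ranged from 3.43 to 4.70 FPKM in fat-1 and from 3.43 to 6.43 FPKM in WT, and the summed level was lowest of its group in each library with Psph-202 at 0. The gene overlaps Cct6a on the opposite strand.

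Gatm, the arginine:glycine amidinotransferase that makes guanidinoacetate for creatine (chromosome 2, 122594467 to 122611303), was among the most abundant of the 10. It measured 161, 171 and 103 FPKM in fat-1 and 287, 164 and 234 FPKM in WT. The groups overlapped, since fat-1 replicate 2 exceeded WT replicate 2. Means were 145 ± 36.6 FPKM in fat-1 and 228 ± 61.8 FPKM in WT (SD, n = 3), a ratio of 0.636 and a difference of -0.65 ± 0.27 (SE). The lowest fat-1 library was replicate 3 and the highest WT library was replicate 1. Without both, the difference was -0.24. The nearest profiles were Trmu at 0.14, Tmed6 at 0.14 and Sult1c2 at 0.15, against a median of 0.52.

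Glyat, the mitochondrial acyltransferase that joins glycine to benzoyl-CoA and similar acyl groups (chromosome 19, 12633308 to 12653911), measured 182, 244 and 143 FPKM in fat-1 and 148, 188 and 205 FPKM in WT. The fat-1 kidneys held both the highest and the lowest value, and the difference was 0.05 ± 0.22 (SE). Glyat-201 carried 95.4% to 97.1% of the gene in fat-1 and 96.4% to 97.0% in WT.

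**Figure D2:**
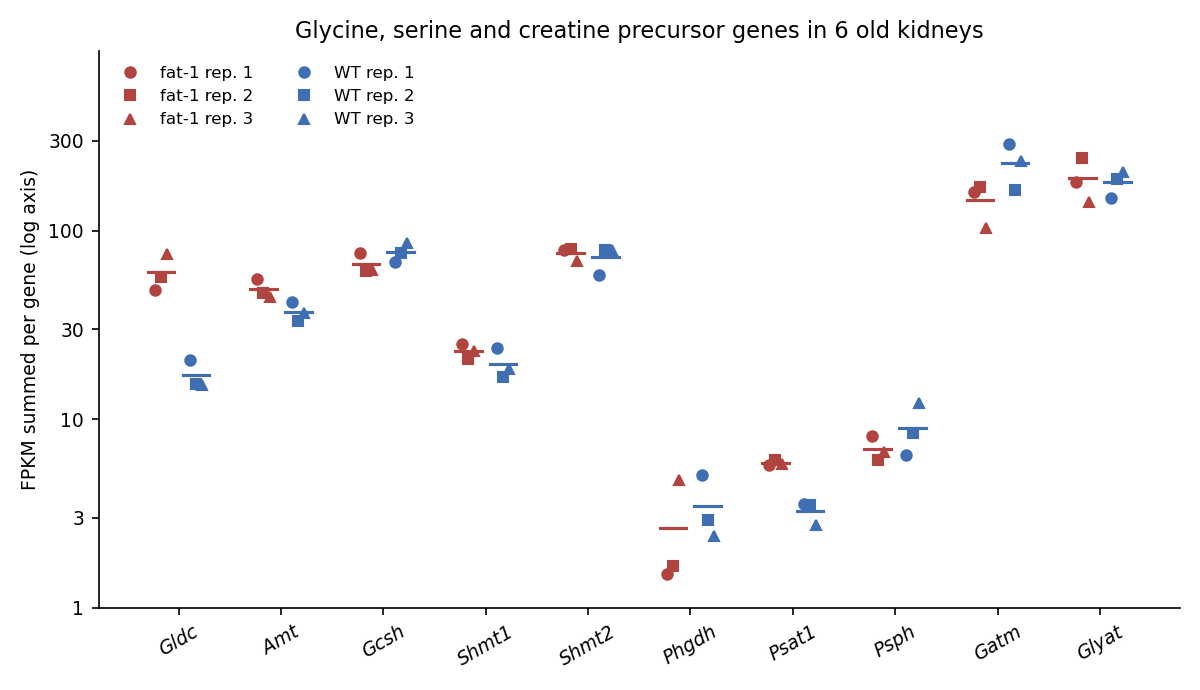
FPKM per gene (log axis) of the 10 genes in each library; fat-1 in red left of WT in blue, marker shapes for replicates, and lines for group means. Gldc, Amt and Psat1 are the genes whose fat-1 points all lie above the WT points, and Phgdh has a single high fat-1 point at 4.77 FPKM.

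**Figure D3:**
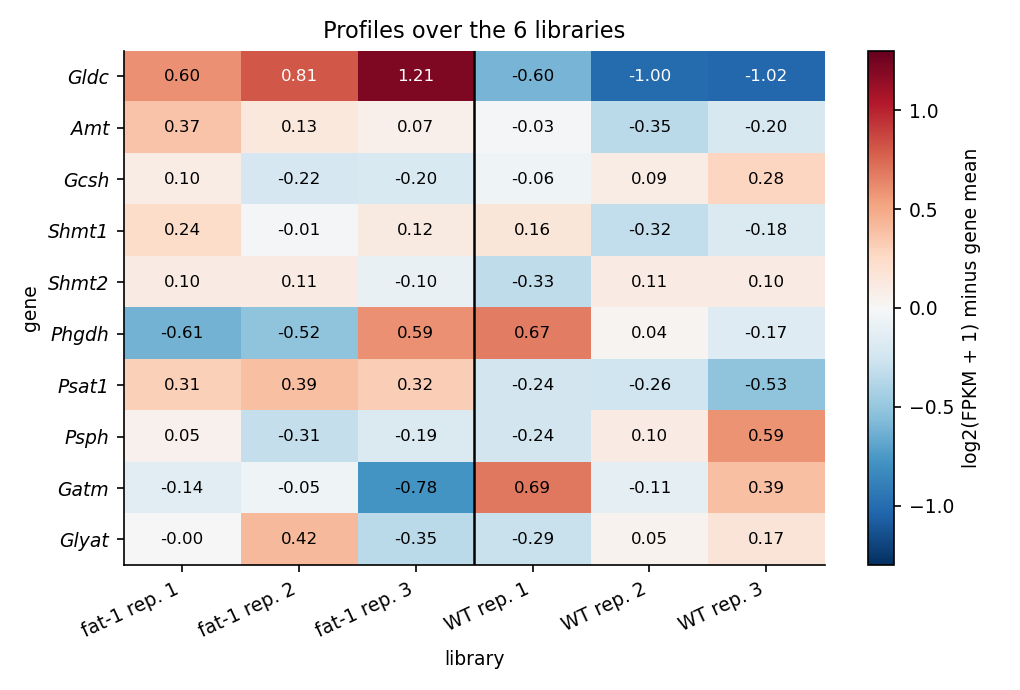
log2(FPKM + 1) of each gene (rows) in each library (columns) after subtracting the gene's mean over the 6 libraries; red is above and blue below that mean. Gldc lies between 0.60 and 1.21 in fat-1 and between -1.02 and -0.60 in WT, while Phgdh is highest in fat-1 replicate 3 (0.59) and WT replicate 1 (0.67).

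The order of the 10 genes by mean FPKM in fat-1 was Glyat, Gatm, Shmt2, Gcsh, Gldc, Amt, Shmt1, Psph, Psat1 and Phgdh. In WT it was Gatm, Glyat, Gcsh, Shmt2, Amt, Shmt1, Gldc, Psph, Phgdh and Psat1. Gldc thus stood in place 5 in fat-1, where its range overlapped those of Gcsh and Amt, and in place 7 in WT, where its range overlapped that of Shmt1 and not that of Psph. Gatm and Glyat overlapped in both groups, as did Shmt2 and Gcsh. Variation between replicates was least for Psat1 in fat-1, with a coefficient of variation of 3.51%, and greatest for Phgdh, at 69.6% in fat-1 and 40.8% in WT. Over the 10 genes the median difference was 0.06, with 6 positive and 4 negative, beside a median of 0.01 and 51.2% positive over all tested genes. Between members, the nearest profiles were those of Amt and Shmt1, 0.11 apart, and of Gcsh and Psph, 0.15 apart.

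**Figure D4:**
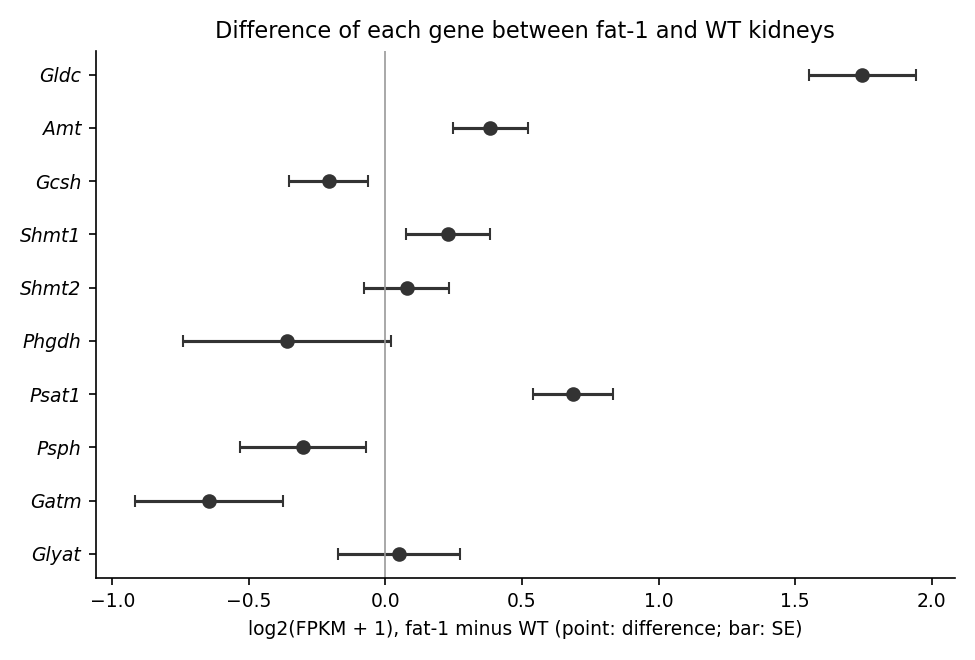
Difference of each gene between fat-1 and WT on the log2(FPKM + 1) scale (points) with its SE (bars). Gldc is at 1.75, Psat1 at 0.69 and Amt at 0.38, and Gatm is lowest at -0.65.

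Genes of 10 related lists, 119 in all, showed no call. Of the 119, 106 were listed in the data and 97 passed the filter on low values. Of these 97, 0 were higher and 0 lower at an adjusted p of 0.05 in limma. Among all tested genes 0.12% were higher and 0.0598% lower, so counts of 0 carry little information. The smallest adjusted p was 0.120. The groups did not overlap in 24.7% of the 97, against 15.2% of all tested genes. The lists were chosen with earlier results known, so nothing is read from these shares. At an unadjusted p under 0.05, 8 were higher and 9 lower, where 5.8% and 4.16% of all tested genes were (9.97% in both directions), and with no robust estimation limma gave 7 and 9. The median difference over the 97 was -0.00, with 48 positive.

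In the 8 genes for lipoate supply and Dld, the cofactor arm of glycine cleavage, the median difference was -0.00 and the range -0.18 to 0.22. The lipoate synthase gene Lias averaged 25.3 FPKM in fat-1 and 24.6 FPKM in WT, and Nfu1, an iron-sulfur carrier, 43.1 and 40.5 FPKM. In the folate one-carbon list, where 20 of 22 genes were tested, the median was 0.10. Aldh1l1, which oxidises formyl-tetrahydrofolate, measured 149 ± 5.26 FPKM in fat-1 and 123 ± 8.69 FPKM in WT (SD, n = 3; 0.28 ± 0.11, SE; limma adjusted p = 0.458). Mthfd1, a trifunctional folate enzyme, averaged 82.5 FPKM in fat-1 and 76.7 FPKM in WT, and the folate receptor gene Folr1 204 and 232 FPKM. The difference of Folr1 was -0.20 ± 0.14 (SE) with its transcripts summed, and -2.19 when only its highest transcript was used. The mitochondrial Mthfd2 was low, at 2.25 ± 0.509 FPKM in fat-1 and 3.88 ± 1.86 FPKM in WT.

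The route from choline through betaine and sarcosine ends in glycine, and 6 of its 8 genes had a positive difference (median 0.29). Sardh, which turns sarcosine into glycine, measured 49.0, 61.5 and 60.0 FPKM in fat-1 and 28.9, 56.2 and 36.4 FPKM in WT, a difference of 0.53 ± 0.24 (SE; limma adjusted p = 0.561). The groups overlapped in 1 WT library. The preceding enzyme gene Dmgdh had means of 62.6 ± 5.49 FPKM in fat-1 and 48.7 ± 9.78 FPKM in WT (SD, n = 3; adjusted p = 0.527). Pipox, which also oxidises sarcosine, averaged 169 FPKM in fat-1 and 175 FPKM in WT.

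The methionine cycle and transsulfuration list, which draws on serine, had differences from -1.03 to 1.18 over its 7 tested genes. Cbs, which joins serine to homocysteine, measured 28.5, 34.99 and 52.6 FPKM in fat-1 and 79.7, 79.3 and 74.4 FPKM in WT. All fat-1 kidneys lay below WT, and the difference was -1.03 ± 0.22 (SE; limma adjusted p = 0.142). Cth, the next enzyme, averaged 78.4 FPKM in fat-1 and 80.5 FPKM in WT. Ahcyl2, of the adenosylhomocysteinase-like family, averaged 32.6 ± 11.2 FPKM in fat-1 and 14.1 ± 6.27 FPKM in WT (SD, n = 3; adjusted p = 0.321).

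Among 10 tested genes of serine, threonine and glyoxylate breakdown, Prodh2, a hydroxyproline dehydrogenase, measured 54.4, 53.2 and 47.3 FPKM in fat-1 and 41.0, 39.5 and 32.3 FPKM in WT (0.45 ± 0.13, SE; limma adjusted p = 0.279). Dao, which oxidises D-serine and glycine, averaged 173 ± 1.55 FPKM in fat-1 and 213 ± 19.9 FPKM in WT (SD, n = 3; adjusted p = 0.461). Hao2 and Grhpr averaged 302 and 135 FPKM in fat-1 and 331 and 135 FPKM in WT.

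Beyond Gatm, the creatine list had 4 tested genes. Gamt, which methylates guanidinoacetate to creatine, averaged 18.4 ± 0.946 FPKM in fat-1 and 16.7 ± 5.49 FPKM in WT (SD, n = 3). The ratio of Gatm to Gamt was 8.38, 9.16 and 5.95 in fat-1 and 25.7, 7.41 and 13.9 in WT, with WT replicate 1 far above the rest. Ckb, the brain-type cytosolic creatine kinase, measured 19.5, 18.8 and 30.8 FPKM in fat-1 and 36.6, 37.7 and 50.2 FPKM in WT, and the mitochondrial Ckmt1 20.6, 19.2 and 29.6 FPKM in fat-1 and 38.3, 31.8 and 34.9 FPKM in WT. In both kinases every fat-1 library lay below every WT library, as in 6.86% of all tested genes. The adjusted p of Ckb and Ckmt1 was 0.229 and 0.297 in limma. The creatine transporter gene Slc6a8 ranged from 12.5 to 34.0 FPKM in fat-1 and from 12.8 to 31.3 FPKM in WT. For the arginine that Gatm uses, Ass1 of arginine synthesis measured 642, 1132 and 671 FPKM in fat-1 and 1004, 1251 and 1291 FPKM in WT (-0.58 ± 0.24, SE; adjusted p = 0.502). Odc1, which draws ornithine into polyamines, averaged 85.1 ± 3.64 FPKM in fat-1 and 165 ± 58.5 FPKM in WT (SD, n = 3; adjusted p = 0.296).

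In the list for conjugation with glycine, Keg1, a glycine acyltransferase-like gene, averaged 613 ± 93.2 FPKM in fat-1 and 646 ± 241 FPKM in WT (SD, n = 3), and the ratio of Glyat to it overlapped between groups. Acsm2, which makes the acyl-CoA substrates, averaged 341 ± 131 FPKM in fat-1 and 508 ± 83.1 FPKM in WT (limma adjusted p = 0.527). The smallest adjusted p of all 97 genes, 0.120, was that of Acot12 in the same list, an acetyl-CoA thioesterase that does not itself conjugate glycine, at 108 ± 11.01 FPKM in fat-1 and 51.3 ± 14.0 FPKM in WT. The list drawn up for glycine and serine carriers had 13 tested genes, and 10 of them had a negative difference (median -0.10). Whether each of them carries glycine or serine was not checked. The serine carrier of the inner mitochondrial membrane, Sfxn1, averaged 124 FPKM in fat-1 and 111 FPKM in WT, and the glycine transporter gene Slc6a18 of the proximal tubule 121 and 124 FPKM. Slc1a4, a neutral amino acid transporter that takes serine, measured 6.61, 4.15 and 6.18 FPKM in fat-1 and 7.17, 8.58 and 10.9 FPKM in WT (adjusted p = 0.435). The largest difference among the carriers was that of Slc36a1, at -1.31 ± 0.71 (SE; limma adjusted p = 0.657). It measured 2.00, 22.4 and 14.5 FPKM in fat-1 and 27.6, 23.8 and 22.4 FPKM in WT. In the ATF4 list, the amino acid stress programme that includes serine synthesis genes, 0 of 13 passed the adjusted threshold. Among all tested genes 0.18% passed it, so a count of 0 says little. The median difference of the list was -0.00. Atf4 itself measured 54.2 ± 2.28 FPKM in fat-1 and 55.4 ± 8.08 FPKM in WT (SD, n = 3; adjusted p = 0.992).

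**Figure D5:**
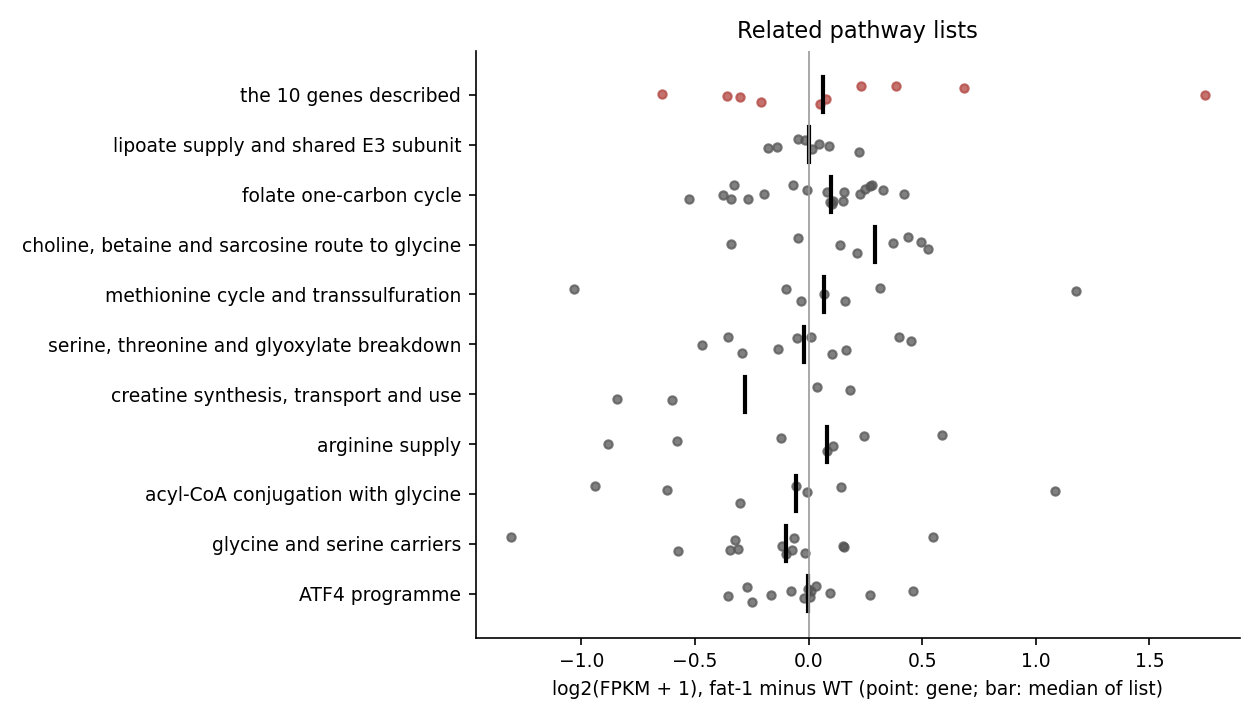
Difference between fat-1 and WT on the log2(FPKM + 1) scale (horizontal axis) for every tested gene (points) of the 10 genes described (top row, red) and of the 10 related lists, with the median of each list as a bar. Medians lie between -0.28 and 0.29, and in the 10 lists no gene reached the adjusted threshold.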

How the data were processed

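RNA of mouse kidney was measured in 6 libraries, 3 fat-1 and 3 WT, grouped by the genotype label. The authors' deposited tables give FPKM per protein-coding transcript (27486, each at 0.50 FPKM or more in at least 1 library). The build mm10, HISAT2 2.0.5 and featureCounts 1.5.0-p3 are named in the submitters' processing notes; no source used here says which tool made the FPKM. Low values gave 20.0% to 25.1% within 0.05 of a whole step, so reads were not recovered and depth is unknown; no counting intervals are given.

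FPKM was summed per gene identifier; 21 symbols turned into dates were restored. Transcript lengths came from GENCODE M21. The 11698 genes reaching 1 FPKM in 3 or more libraries entered limma 3.58.1 (R 4.3.3) on log2(FPKM + 1), with trend, robust estimation, Benjamini-Hochberg adjustment over all genes and a threshold of 0.05. The fit was tested on simulated data with changes put into better expressed genes. Noise was drawn for each gene on its own, with no effect shared within a library, so recovery in the real data may differ. In the simulation the fit recovered 59.7% of 2-fold, 90.05% of 4-fold and 96.97% of 16-fold changes, so genes without a call may still differ. Exact permutation of 3 against 3 cannot go below 0.1. Members and lists were chosen with earlier results of these data known; lists are described by counts. Named were all members, and per list the called genes, the 4 most expressed and the 2 most different; Tek, Fgf18 and other neighbours by profile distance. Not every gene the rule names is given. Python 3.11.15 and matplotlib 3.10.9 were used.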

Additional observations from a re-analysis of the deposited data

How the results depend on the processing

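The log2 difference of Gldc stayed between 1.58 and 1.88 with any 1 library left out and between 1.71 and 1.80 under the other alternatives. Gldc was under the adjusted threshold in 8 of 16 alternatives, and in 1 of the 6 that left out a library (WT replicate 1). The median over the 10 genes lay between -0.075 and 0.19 with any 1 library left out; leaving out WT replicate 1 gave the lowest value and leaving out fat-1 replicate 3 the highest. Of the 10 genes, 8 kept the sign of their difference under each alternative that gave them a value, and Shmt2 and Glyat did not; Phgdh had none under the filter of 5 FPKM. The 21 genes called over the whole table became 4 with no filter, 42 with a filter of 5 FPKM, 52 with equal summed FPKM (33 when mitochondrially encoded genes were left out of the sum), 8 with median-of-ratios factors, 13 with TMM factors and 3 with the highest transcript only. With fat-1 replicate 3 and WT replicate 1 both left out, limma called 0 genes, against 1389 at an unadjusted p under 0.05. With any 1 library left out the count lay between 0 and 25: leaving out fat-1 replicate 1 gave 0 (1005 at an unadjusted p under 0.05), as did fat-1 replicate 3 (1059) and WT replicate 3 (831), and leaving out either replicate 2 gave 1. The cause was not tested. The number of related pathway genes called was 0 under all 16 alternatives, with 10 to 19 at an unadjusted p under 0.05. No paired analysis was possible because the labels give the groups no shared replicate numbers, and the numbers printed for fat-1 follow the order of deposit. Depth is unknown, so low genes such as Phgdh have no counting error here.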
